A study of Mus musculus with 8 samples.

Results

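The claudins of epithelial cells were followed in first molars of mouse pups with and without Wdr72. The group was chosen by gene name and holds Cldn1, Cldn3, Cldn4, Cldn7, Cldn8, Cldn10, Cldn12, Cldn16, Cldn19 and Cldn23, that is 10 of the 54532 genes in the deposited table of read counts, and 10 of its 37 genes with a claudin or claudin domain symbol. The wild-type group (WT) held 4 libraries from C57BL/6 pups, numbered 2, 3, 4 and 5 in the labels. The knockout group (KO) held 4 libraries from Wdr72-/- pups, numbered 1, 3, 4 and 5, from a colony bought from a breeding centre. Human families that lack working WDR72 have amelogenesis imperfecta of the hypomaturation type, in which the enamel stays soft. The pups are labelled as 12 days old, while the text on dissection speaks of day 13. The deleted part of the gene and the number of pups behind each library are not given in the labels, so the p-values reflect how these libraries differed from each other, which may be technical. Pulp was removed and the remaining molar was homogenised whole, so the RNA came from the enamel organ together with other tissue left on the tooth.

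Claudins are membrane proteins with 4 passes through the membrane that form the strands of tight junctions, the seals between neighbouring epithelial cells. Some claudins close the space between cells, and others form pores that let selected ions through. Ameloblasts, the epithelial cells that form enamel, carry tight junctions at their ends, and during maturation these junctions separate the enamel space, where acid is released as mineral grows, from the tissue behind. Mutations of the human genes CLDN16 and CLDN19 cause a renal loss of magnesium and calcium that can come with defective enamel, and mutations of CLDN10 cause a syndrome of ion loss and dry mucosae in which enamel wear has been described.

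Pairs of these genes that neighbour each other on the genome differed widely in level. Cldn1 and Cldn16 are adjacent claudin genes on chromosome 16 with 91.3 kb between them, and Cldn4 and Cldn3 are adjacent on chromosome 5 with 39.3 kb between them. Over all 8 libraries Cldn1 had 240789 reads and Cldn16 had 1, while Cldn4 had 940 and Cldn3 had 1. The 250 bases before each start site are printed because they belong to the most abundant member, to the member that differed most between KO and WT, and to the neighbour of each, which had 1 read. They are from RefSeq on GRCm38.p6, which had entries for 8 of the 10 genes. Capitals mark matches, on either strand, to the GC box GGGCGG, the TATA box TATAAA, the AP-1 site TGANTCA and the E-box CACCTG, which is bound by Snail repressors.
Cldn1, chr16:26371840-26372089, minus strand: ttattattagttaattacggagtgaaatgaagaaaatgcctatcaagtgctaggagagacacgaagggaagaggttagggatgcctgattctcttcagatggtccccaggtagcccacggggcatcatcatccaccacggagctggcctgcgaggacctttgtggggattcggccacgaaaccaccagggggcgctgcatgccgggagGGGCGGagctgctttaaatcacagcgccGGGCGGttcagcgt
Cldn16, chr16:26462885-26463134, plus strand: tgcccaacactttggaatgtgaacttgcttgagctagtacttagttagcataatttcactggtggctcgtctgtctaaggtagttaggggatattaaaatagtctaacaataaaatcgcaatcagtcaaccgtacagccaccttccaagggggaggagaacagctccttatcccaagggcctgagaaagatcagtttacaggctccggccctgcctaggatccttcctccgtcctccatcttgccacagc
Cldn4, chr5:134946935-134947184, minus strand: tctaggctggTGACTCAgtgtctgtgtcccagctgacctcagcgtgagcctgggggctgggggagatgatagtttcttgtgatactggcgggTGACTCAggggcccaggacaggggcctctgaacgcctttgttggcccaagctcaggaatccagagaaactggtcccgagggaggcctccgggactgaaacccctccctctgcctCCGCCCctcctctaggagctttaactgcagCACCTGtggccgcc
Cldn3, chr5:134985964-134986213, plus strand: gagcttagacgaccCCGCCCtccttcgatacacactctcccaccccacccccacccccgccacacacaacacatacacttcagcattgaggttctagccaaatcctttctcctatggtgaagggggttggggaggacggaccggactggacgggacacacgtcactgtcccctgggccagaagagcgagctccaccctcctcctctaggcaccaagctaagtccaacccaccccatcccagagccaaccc
Cldn1 held 2 GC boxes and 14 CpG dinucleotides in this window, and Cldn16 held no match and 5 CpG. Cldn4 held 2 AP-1 matches, whose first bases lie 240 and 158 bases before the start, together with 1 GC box and 1 E-box. Cldn3 held 1 GC box, and there were 7 CpG in the Cldn4 window and 9 in that of Cldn3. Of 32851 promoter windows of the same length, 32.7% held the GC box letters, 12.4% the TATA box, 6.75% the AP-1 site and 17.2% the E-box, and the median window held 6 CpG. A match describes the letters and is not a measured binding site.

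The libraries held 17084475 to 21887462 counted reads, and 16205 genes passed the filter on low counts. Levels are CPM, that is reads of a gene relative to the TMM-scaled library total, computed from the deposited counts, and means are given with SD over 4 libraries. Wdr72 (ENSMUSG00000044976, chromosome 9, 74110356 to 74283308) averaged 243 ± 63.6 CPM over the WT libraries and 45.1 ± 38.9 CPM over the KO libraries (n = 4 each). The groups did not overlap, KO 1 kept the most at 102 CPM, and the adjusted p was 0.08 by edgeR (log2 fold change -2.43, SE 0.47). With single libraries left out the adjusted p ran from 0.012 without KO 1, where the log2 fold change was -3.21, to 0.31 without WT 3. The adjusted p of Wdr72 was 0.0056 by DESeq2 and 0.0035 by limma voom. With the replicate number as a block it was 0.037 by edgeR (log2 fold change -3.42). WT 2 and KO 1 share their number with no other library, so the block fit compares the groups within numbers 3, 4 and 5 only. KO 5 was the least like the others: its log2 CPM correlated with theirs at 0.9645 on average, where the remaining 7 libraries reached 0.98 to 0.9828. The rank correlation across genes between a library's deviation and gene GC content ran from -0.432 to -0.162 for WT and from -0.066 to 0.391 for KO. Xist averaged 637 ± 269 CPM over WT libraries and 243 ± 81.4 CPM over KO libraries (log2 fold change -1.39, SE 0.34, adjusted p = 0.12 by edgeR). WT 4, at 251 CPM, lay inside the KO range of 177 to 356 CPM. The fits took no account of the sex of the pups, and whether it differed between the groups was not tested.

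The claudins spanned more than 4 powers of 10 in level. Per kilobase of gene length, Cldn1 stood at 309 ± 95.6 CPM per kb over the 8 libraries (SD, n = 8), Cldn12 at 28.9 ± 3.78, Cldn10 at 3.78 ± 0.953 and Cldn4 at 3.25 ± 2.10. The other 6 genes were far lower, with Cldn8 at 0.240 ± 0.117 CPM per kb, Cldn19 at 0.173 ± 0.0568, Cldn7 at 0.133 ± 0.0751 and Cldn23 at 0.0564 ± 0.0965. The ranges of Cldn1 and Cldn12, of Cldn12 and Cldn10, and of Cldn4 and Cldn8 did not overlap over the 8 libraries, so these steps are larger than the spread between libraries. Cldn10 and Cldn4 were not separated over the 8 libraries, with Cldn4 the higher in KO 4 and KO 5 and Cldn10 in the other 6. Within WT they did not overlap, at 2.78 to 5.52 CPM per kb for Cldn10 and 1.07 to 2.16 for Cldn4. Neighbours in the order from Cldn8 downward overlapped in range. In bulk tissue a smaller share of cells and less RNA per cell cannot be told apart.

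**Figure D1:**
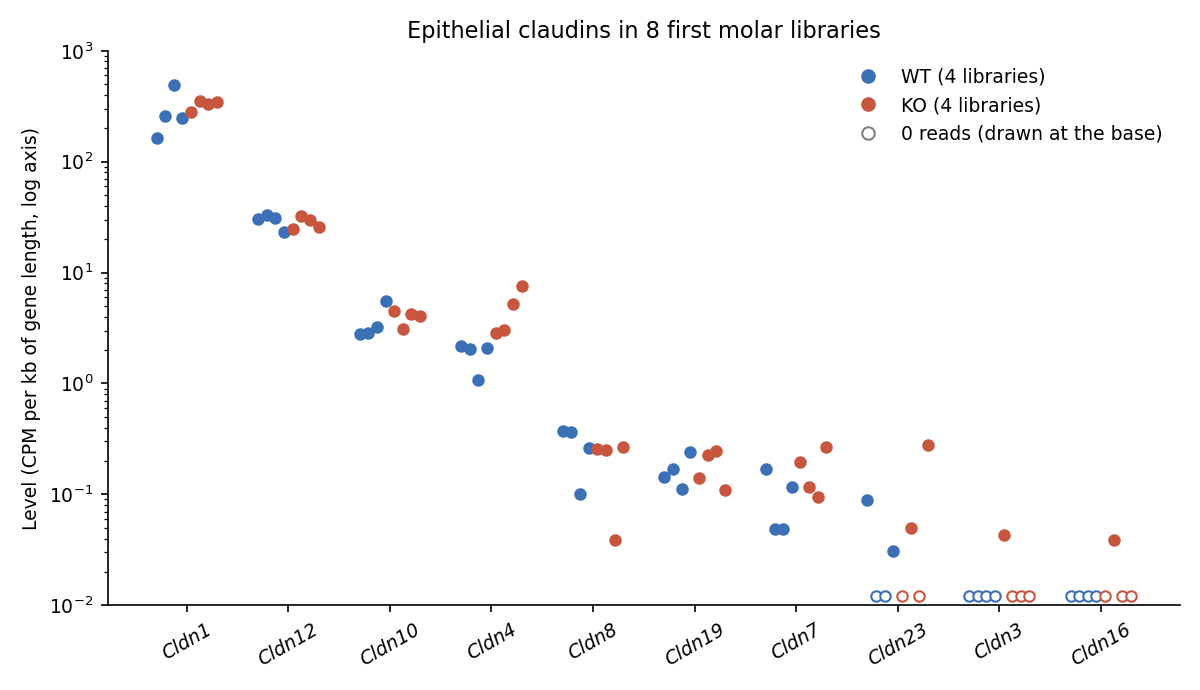
Level of each epithelial claudin in each of the 8 libraries, in CPM per kb of gene length on a log axis, WT in blue and KO in red, with open circles at the base for libraries with 0 reads. Cldn1 lies above all other members in each library, and Cldn3 and Cldn16 have a single filled point each.

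Cldn1 (ENSMUSG00000022512, chromosome 16, 26356642 to 26371841) encodes the claudin that seals the epidermis and without which newborn mice lose water through the skin. It was the 40th most abundant of all genes by CPM and made up 84.9% to 94.3% of the reads of the 10 claudins in each library. Levels in WT 2, 3, 4 and 5 were 799, 1255, 2361 and 1188 CPM, against 1361, 1711, 1600 and 1684 CPM for KO 1, 3, 4 and 5. The KO values lay inside the WT range, which ran 2.96-fold from lowest to highest, against 1.26-fold in KO. The means were 1401 ± 671 CPM in WT and 1589 ± 159 CPM in KO (n = 4 each). The log2 fold change, KO minus WT, was 0.18 (SE 0.27, 95% interval -0.41 to 0.77, adjusted p = 0.76 by edgeR). It was -0.021 without WT 2 and 0.55 without WT 4, so the libraries give no direction for Cldn1. WT 4 also had the highest summed level of the ameloblast marker list, 99800 CPM, but other libraries did not follow this order. WT 5 had the lowest sum, 55514 CPM, and more Cldn1 than WT 2, with 72462 CPM. KO 4, with 61707 CPM, had more Cldn1 than WT 3, with 82172 CPM. The part of ameloblasts in the Cldn1 value was not tested.

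Cldn12 (ENSMUSG00000046798, chromosome 5, 5489537 to 5514958) encodes a claudin that lacks the usual C-terminal PDZ-binding residues and has been linked to calcium passage in gut and kidney. Levels in WT 2, 3, 4 and 5 were 129, 141, 132 and 97.4 CPM, against 105, 137, 127 and 110 CPM for KO 1, 3, 4 and 5. The groups overlapped almost fully, and the WT spread, at 15.2% of the mean, was smaller than for Cldn1, Cldn10 and Cldn4. With a log2 fold change of -0.059 (SE 0.14, 95% interval -0.36 to 0.24, adjusted p = 0.86 by edgeR), Cldn12 is the member whose difference is bounded most tightly.

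Cldn10 (ENSMUSG00000022132, chromosome 14, 118787908 to 118875489) encodes pore-forming claudins, and RefSeq gives start sites at 118787871 and 118854950, whose transcripts the gene counts do not separate. Levels in WT 2, 3, 4 and 5 were 7.20, 7.45, 8.40 and 14.3 CPM, against 11.6, 8.03, 10.9 and 10.5 CPM for KO 1, 3, 4 and 5. WT 5 was the highest of all 8 libraries and the other WT libraries were among the lowest, so the groups overlapped. The log2 fold change was 0.14 (SE 0.22, 95% interval -0.35 to 0.62, adjusted p = 0.78 by edgeR), and it was 0.42 without WT 5. The 3 libraries with the most Cldn10, WT 5, KO 1 and KO 4, also had the highest summed levels of the mesenchyme marker list, 59863, 61195 and 67664 CPM, against 31495 to 53738 CPM in the other libraries. The part of mesenchyme in the Cldn10 value was not tested.

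Cldn4 was the member with the largest difference between the groups. Cldn4 (ENSMUSG00000047501, chromosome 5, 134945119 to 134946934, minus strand) encodes a claudin of simple epithelia and of the renal collecting duct, and is known as a receptor of a clostridial enterotoxin. WT 2, 3, 4 and 5 had 3.93, 3.72, 1.95 and 3.79 CPM, from 71, 78, 41 and 67 reads. KO 1, 3, 4 and 5 had 5.20, 5.55, 9.39 and 13.7 CPM, from 95, 121, 204 and 263 reads. Each KO library was above each WT library, with KO 4 and KO 5 well above KO 1 and KO 3. The means were 3.35 ± 0.938 CPM in WT and 8.45 ± 3.97 CPM in KO (n = 4 each), a fold of 2.53. The log2 fold change was 1.34 (SE 0.33, 95% interval 0.63 to 2.05), with an adjusted p of 0.12 by edgeR over all genes, which did not pass 0.05.

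The Cldn4 difference kept its sign in the 18 alternatives, while the call depended on the tool. Over these alternatives the log2 fold change ran from 1.01 to 1.56 and the adjusted p from 0.0069 to 0.53. DESeq2 gave 1.33 (adjusted p = 0.0069) and limma voom with quality weights gave 1.08 (adjusted p = 0.024). Without KO 5, the library that stood apart and had the most Cldn4, edgeR gave 1.01 (SE 0.27, adjusted p = 0.12). Without KO 1 and KO 5 together it gave 1.16 (SE 0.29, adjusted p = 0.16).

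**Figure D2:**
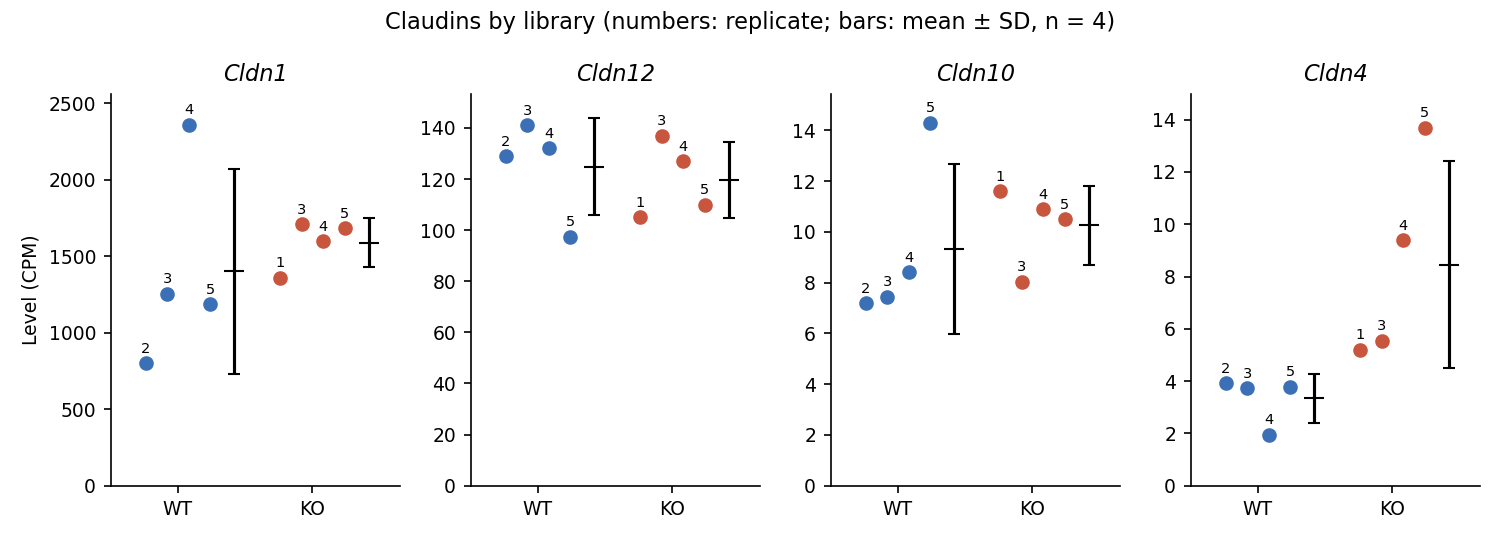
Level in CPM of Cldn1, Cldn12, Cldn10 and Cldn4 in each WT and KO library, each panel with its own axis from 0, with replicate numbers over the points and the mean ± SD (n = 4) as bars. Cldn4 is at 1.95 to 3.93 CPM in WT and at 5.20 to 13.7 CPM in KO, while the groups overlap for the other genes.

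The GC content of Cldn4 was 56.8% over its transcripts, and the rank correlation with GC content was lower in each WT library than in each KO library. WT 4, with the lowest rank correlation with GC content (-0.432), had the least Cldn4, and KO 5, with the highest (0.391), had the most. KO 1, at 0.31, had the least Cldn4 among the KO libraries. With a correction for GC content and length in each library, the log2 fold change was 1.12 (SE 0.27, adjusted p = 0.11 by edgeR). What sets the GC correlations apart between the groups was not tested. Cldn4 also ran opposite to Wdr72 across the libraries. From the highest to the lowest Wdr72, at 327, 245, 227, 173, 102, 37.8, 24.9 and 15.8 CPM, Cldn4 was at 1.95, 3.72, 3.79, 3.93, 5.20, 5.55, 9.39 and 13.7 CPM. This exact reverse order was seen in 3 of the 16205 genes tested, Cldn4 among them, and the same order as Wdr72 in 4. Wdr72 was higher in each WT library than in each KO library. Only genes whose groups did not overlap and that were higher in KO, 892 of those tested, could therefore show the reverse order. The order was noticed after the values were seen. The levels of WT 3, WT 5 and WT 2 rest on 78, 67 and 71 reads, too few to order them.

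**Figure D3:**
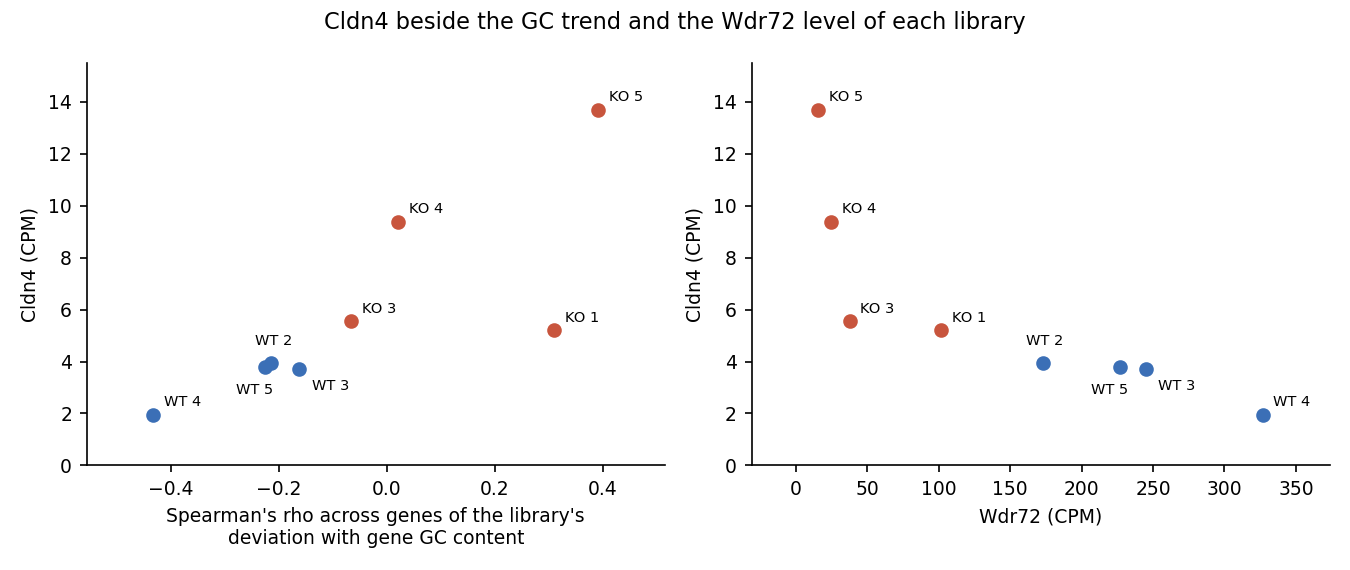
Cldn4 level in CPM in each library against that library's rank correlation across genes with GC content (left) and against its Wdr72 level in CPM (right), WT in blue and KO in red. Cldn4 is lowest in WT 4 (1.95 CPM), the library with the most Wdr72, and highest in KO 5 (13.7 CPM), the library with the least.

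Cldn3 (ENSMUSG00000070473, chromosome 5, 134986214 to 134987472), a close relative of Cldn4 that seals many simple epithelia, had 1 read in KO 1 and 0 in the other 7 libraries. Cldn16 (ENSMUSG00000038148, chromosome 16, 26463135 to 26482765), which forms cation pores for magnesium and calcium in the kidney, had 1 read in KO 3 and 0 in the other 7. A count of 0 allows a level of up to 3 reads, or 0.138 to 0.17 CPM depending on the library, and covers counting error only. At this depth neither gene was detected beyond single reads, and no fold is given. Wbscr25, an antisense gene that overlaps Cldn3, had 3 reads in all.

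Cldn19 (ENSMUSG00000066058, chromosome 4, 119255414 to 119262438), the partner of Cldn16 in the kidney and also a claudin of Schwann cells, had 9 to 23 reads per library. Levels in WT 2, 3, 4 and 5 were 0.609, 0.716, 0.475 and 1.02 CPM, against 0.602, 0.964, 1.06 and 0.468 CPM for KO 1, 3, 4 and 5. Cldn19 thus overlapped fully between the groups while Cldn16 was at or near 0. The log2 fold change was 0.15 (SE 0.38, 95% interval -0.68 to 0.98, adjusted p = 0.86 by edgeR), and it was -0.0057 without WT 4 and -0.034 without KO 4. The list of nerve and Schwann cell markers summed to 235 to 277 CPM in WT and 292 to 351 CPM in KO, and its part in the Cldn19 level was not tested.

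Cldn8 (ENSMUSG00000050520, chromosome 16, 88560828 to 88563183), which acts with Cldn4 in the collecting duct, had 2 to 18 reads per library. Levels in WT 2, 3, 4 and 5 were 0.886, 0.859, 0.237 and 0.622 CPM, against 0.602, 0.597, 0.0921 and 0.624 CPM for KO 1, 3, 4 and 5. WT 4 and KO 4 were the lowest of their groups. The log2 fold change was -0.45 (SE 0.54, 95% interval -1.63 to 0.74, adjusted p = 0.70 by edgeR), an interval that leaves a change in either direction possible. It was -0.091 without KO 4 and -1.39 with limma voom (SE 0.60, adjusted p = 0.18), and none of the 17 alternatives that tested Cldn8 called it.

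Cldn7 and Cldn23 did not pass the filter on low counts. Cldn7 (ENSMUSG00000018569, chromosome 11, 69964779 to 69967885), a claudin found along the lateral membrane of many epithelia, had 6, 2, 2 and 4 reads in WT and 7, 5, 4 and 10 in KO, or 0.0949 to 0.332 CPM and 0.184 to 0.520 CPM. Cldn23 (ENSMUSG00000055976, chromosome 8, 35824712 to 35826559), a claudin of the intestinal surface, had 3, 0, 0 and 1 reads in WT and 0, 2, 0 and 10 in KO. KO 5 was the highest library for both genes, and the groups overlapped.

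Of the 10 claudins, 6 passed the filter, and 0 of these passed an adjusted p of 0.05 by edgeR, beside 5 of all 16205 genes tested (0.0309%; 0.0123% higher in KO and 0.0185% lower). At an unadjusted p of 0.05 there was 1 member, Cldn4, by edgeR, beside 15.7% of all genes, and DESeq2 and limma voom each called 1 member, Cldn4 again, at an adjusted p of 0.05. Over all genes DESeq2 called 2.86% (1.83% higher in KO and 1.04% lower) and limma voom 6.62% (4.34% higher and 2.28% lower). The groups did not overlap in 1 of the 6, Cldn4, beside 10.9% of all genes tested (5.5% higher in KO and 5.44% lower). Of the 6, 4 had a higher mean in KO and 2 a lower one, and their median log2 fold change was 0.15, beside 0.021 for all genes. The summed level of the 10 genes was 941 to 2504 CPM in WT and 1484 to 1864 CPM in KO, and followed Cldn1. Cldn4 made up 0.205% to 1.08% of the summed CPM per kb in WT and 0.779% to 1.95% in KO.

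Of 19 other claudin and claudin domain genes that were listed and present in the table, 8 passed the filter, 2 higher and 6 lower, with a median log2 fold change of -0.22. By edgeR 0 passed an adjusted p of 0.05, and at an unadjusted p of 0.05 there was 1 higher (8.7% of all genes) and 1 lower (6.98%). Cldn20 (chromosome 17, 3532554 to 3533213) was at 72.5, 66.3, 34.3 and 22.8 CPM in WT 2, 3, 4 and 5 and at 27.5, 21.3, 17 and 27.4 CPM in KO 1, 3, 4 and 5. The high values came from WT 2 and WT 3, which also had the highest sums of the oral keratinocyte list, 1476 and 1425 CPM, but WT 5, with 1201 CPM, had less Cldn20 than WT 4, with 766 CPM. KO minus WT came to -1.07 on the log2 scale (SE 0.31, adjusted p = 0.17 by edgeR), while DESeq2 and limma voom called Cldn20 at adjusted p of 0.03 and 0.014. Its count is uncertain because Tfb1m overlaps it on the opposite strand. Cldn5 (chromosome 16, 18776847 to 18778262), the main claudin of blood vessels, averaged 8.46 ± 1.18 CPM over WT libraries and 13.3 ± 5.84 CPM over KO libraries, a log2 fold change of 0.64 (SE 0.26, adjusted p = 0.28 by edgeR). Its highest values were in KO 1 and KO 5, at 14.5 and 21 CPM. There the endothelial list also summed highest, at 614 and 598 CPM against 476 to 506 CPM in the rest. Of the 12 endothelial genes 7 were higher in KO and 5 lower, and at an unadjusted p of 0.05 by edgeR 4 were higher and 1 lower. The 2 most abundant were Kdr and Pecam1. Kdr was at 80.4 CPM in KO 1 and 62.1 CPM in KO 5, against 69.2 to 88.1 CPM in WT. Pecam1 was at 90.5 and 77.1 CPM, against 76.2 to 84.6 CPM in WT. KO 1 and KO 5 also had the highest rank correlations with GC content, at 0.31 and 0.391. The GC content of Cldn5 was 60.5%. With the GC and length correction its log2 fold change was 0.37 (SE 0.19, adjusted p = 0.42 by edgeR). The part of keratinocytes in the Cldn20 value and of vessels in the Cldn5 value was not tested. For Cldn13 the log2 fold change came to -0.74 (SE 0.39), and for Cldnd1 to -0.18 (SE 0.11).

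The proteins that work with claudins were also compared, from a list of 31 genes that all passed the filter. By edgeR and by DESeq2 0 passed an adjusted p of 0.05, and by limma voom 2 did, Ocln and Tjp3, both lower. In all 12 were higher and 19 lower, their median log2 fold change was -0.023, and at an unadjusted p of 0.05 there were 2 higher (Jam3 and Lsr, beside 8.7% of all genes) and 6 lower (Cgn, Tjp3, Pard6b, Ocln, Mpp5 and Marveld3, beside 6.98%). The groups did not overlap in 1 higher gene, Arhgef2 (5.5% of all genes), and 3 lower genes, Mpp5, Tjp3 and Cgn (5.44%). Ocln, which encodes occludin, the other strand protein of tight junctions, was at 45.6, 45.1, 40 and 35.9 CPM in WT 2, 3, 4 and 5 and at 31.5, 37.4, 28.5 and 22.3 CPM in KO 1, 3, 4 and 5. KO 3 reached into the WT range and the other KO libraries lay below it, and the log2 fold change was -0.48 (SE 0.15, adjusted p = 0.20 by edgeR). Cgn, the junction plaque protein cingulin, was at 1.94, 1.58, 1.23 and 1.24 CPM for WT 2, 3, 4 and 5 and at 0.82, 1.15, 0.645 and 0.416 CPM for KO 1, 3, 4 and 5 (log2 fold change -0.97, SE 0.34, adjusted p = 0.23 by edgeR). Mpp5, a polarity scaffold of the Crumbs complex, was at 54.8 ± 4.21 and 40 ± 7.80 CPM (log2 fold change -0.45, SE 0.14, adjusted p = 0.19 by edgeR). Both Cgn and Mpp5 had groups that did not overlap, but Cgn had only 8 to 35 reads per library. The GC content of Mpp5 was 39.4%. With the GC and length correction the log2 fold change of Mpp5 was -0.22 (SE 0.087, adjusted p = 0.30 by edgeR). That of Cgn was -1.06 (SE 0.33) and that of Ocln was -0.37 (SE 0.13). Tjp3 had a log2 fold change of -0.78 (SE 0.24), but Apba3 overlaps it with more reads than its own, so its count is uncertain. The abundant scaffold Tjp1, or ZO-1, averaged 519 ± 43.7 CPM over WT libraries and 430 ± 124 CPM over KO libraries, and its log2 fold change was -0.27 (SE 0.20, adjusted p = 0.51 by edgeR). The log2 fold changes of Marveld2 and the junctional adhesion molecule gene F11r were -0.023 (SE 0.16) and -0.015 (SE 0.15), with signs that turned in some alternatives.

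**Figure D4:**
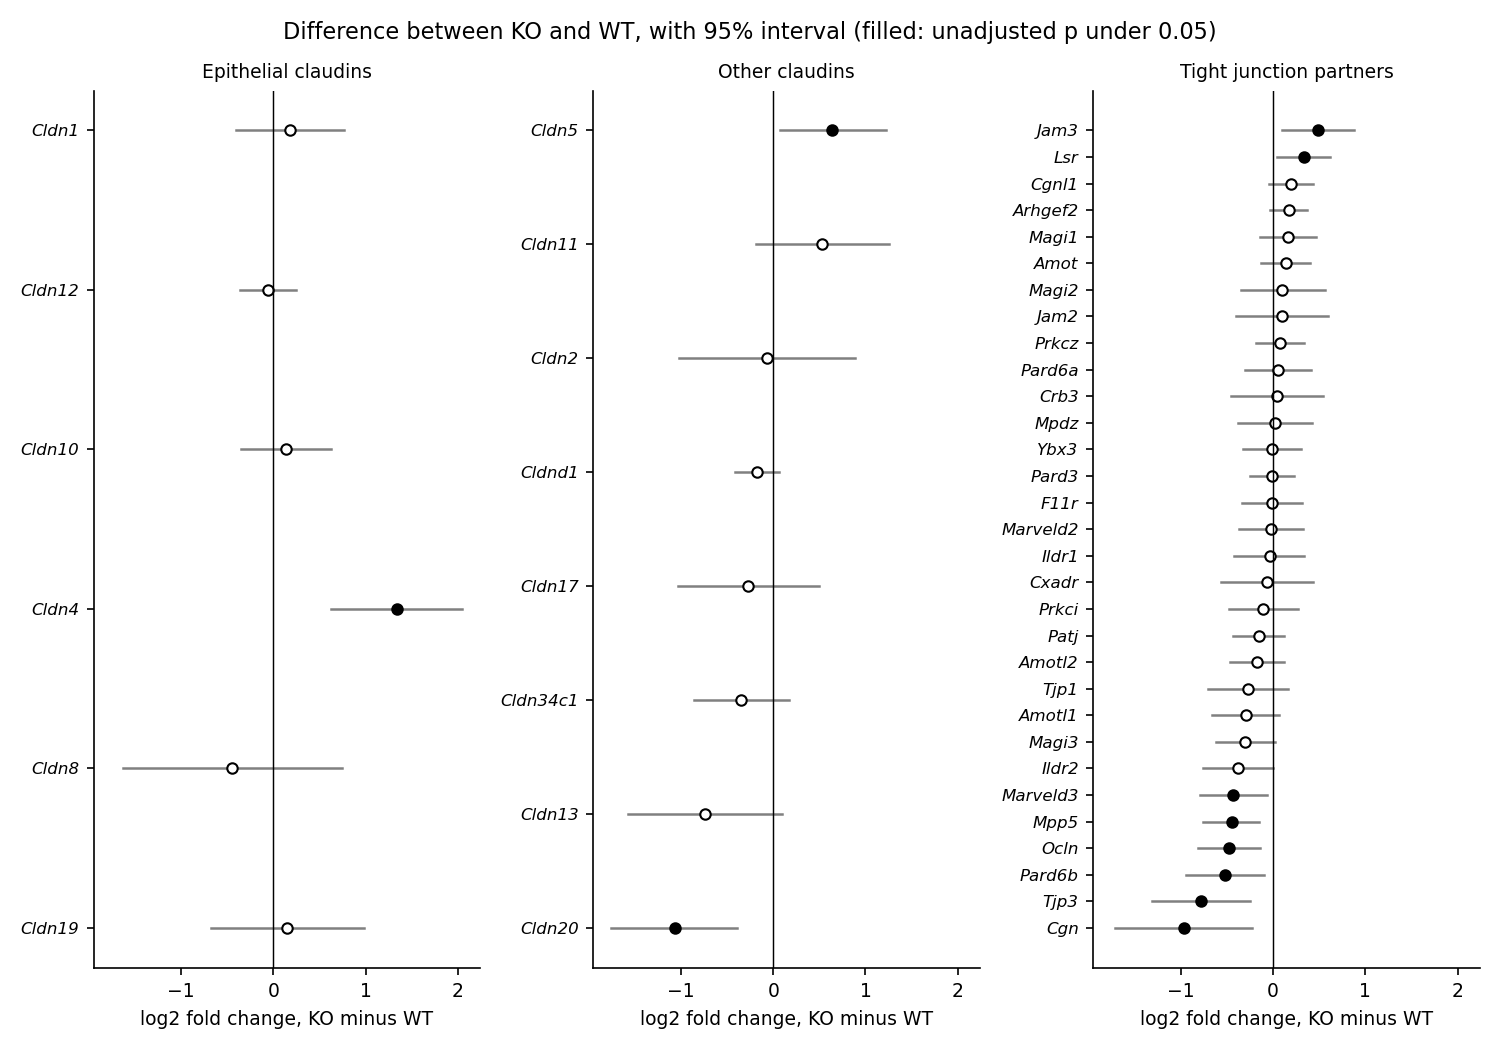
Log2 fold change, KO minus WT, with its 95% interval from edgeR, for the epithelial claudins, the other claudins and the tight junction partners that passed the filter, with filled points for an unadjusted p under 0.05. Cldn4, at 1.34, lies farthest to the right, and Cldn20 (-1.07) and Cgn (-0.97) lie farthest to the left.

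Markers of the cell types in the molar show which tissue the claudin values were measured in. The ameloblast genes Ambn and Odam were at 38662 ± 12366 and 22608 ± 3177 CPM in WT, and the median log2 fold change of the 14 ameloblast markers was -0.0034. Of these 14, edgeR called 0 (2 at an unadjusted p of 0.05, beside 15.7% of all genes), DESeq2 1 (beside 2.86%) and limma voom 3 (beside 6.62%). The 12 general epithelial markers, such as Krt14 and Krt5, had a median of 0.0079 and summed to 14345 to 19126 CPM in WT and 13765 to 22356 CPM in KO. Of these 12, edgeR called 0, while DESeq2 and limma voom each called 1 higher in KO, Epcam, beside 1.83% and 4.34% of all genes. Among the edgeR fits Epcam was called only with no low-count filter. Of 18 oral keratinocyte markers 15 were tested, and these 15 were lower in KO, with a median of -1.32. By edgeR 2 of them fell, Krt1 and Spink5, beside 0.0185% of all genes called lower. DESeq2 called 11 and limma voom 13, beside 1.04% and 2.28% of all genes called lower. The edgeR count was 0 with the replicate number as a block and without WT 2, WT 3, KO 3 or KO 4, 1 without KO 1, 4 without KO 5, 5 with the GC and length correction or with no low-count filter, and 6 without WT 4. Over all genes the edgeR calls lower in KO were 1 with the block and 0 without WT 2, WT 3, KO 3 or KO 4. They were 2 without KO 1, 20 without KO 5, 9 with the correction, 61 with no low-count filter and 14 without WT 4. The oral keratinocyte list summed to 766 to 1476 CPM in WT and 603 to 883 CPM in KO, with Sprr2a1 at 0 in all libraries. The 13 stratum intermedium and papillary layer genes, 12 of them tested, had a median of 0.073 and summed to 7997 to 8722 CPM in WT and 8357 to 9303 CPM in KO. At an unadjusted p of 0.05 by edgeR 1 was higher (beside 8.7% of all genes) and 3 were lower (beside 6.98%). At an adjusted p of 0.05 edgeR and DESeq2 called 0, and limma voom called 1 lower, Slc2a1.

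Genes of the lists meant for cells outside the epithelium were mostly higher in KO, beside 8607 of all 16205 genes tested. Whether the rank correlations with GC content, lower in each WT library than in each KO library, contribute to this was not tested. Of 16 mesenchyme genes 15 were higher, with a median of 0.51 and sums of 31495 to 59863 CPM in WT and 46087 to 67664 CPM in KO. Of 16 nerve and Schwann cell genes 14 were higher (median 0.39), and of 12 macrophage genes 11 (median 0.37, 249 to 275 CPM in WT and 289 to 391 CPM in KO). The 12 endothelial genes had a median of 0.13, 7 of 7 tested osteoclast genes were higher (median 0.70), and 8 of 11 tested odontoblast and bone genes were higher (median 0.38). Of 5 tested genes of the perineurial list, meant for the sheath of nerves, 4 were higher (median 0.37). This list shares Slc2a1 with the stratum intermedium and papillary layer list, so it does not stand for nerve sheath alone. Whether its other genes, such as Itgb4, mark only nerve sheath in these molars was not tested. Over all the lists of cells outside the epithelium edgeR called 1 gene higher, Smpd3, beside 0.0123% of all genes. The count of Smpd3 is uncertain because Prmt7 overlaps it. The edgeR call of Smpd3 was lost with other scalings, with the GC and length correction, with the replicate number as a block, and without WT 2, WT 3, WT 5, KO 1, KO 3 or KO 4. DESeq2 called 7 mesenchyme, 3 nerve and Schwann, 3 odontoblast and bone, 2 macrophage and 2 perineurial genes (Gli1 and Itgb4), all higher, beside 1.83% of all genes. With limma voom the counts were 12, 3, 4, 3 and 3 higher, beside 4.34%, and 1 perineurial gene, Slc2a1, was lower. Both tools called Mfap4, Gli1 and Csf1r, whose read counts are uncertain as well because Mapk7, Arhgap9 and Hmgxb3 overlap them. The reads of the overlapping gene came to 54.1%, 55% and 67% of their own, against 50.1% for Smpd3. Neither tool called an endothelial or osteoclast gene. The part of these cell types in the Cldn4, Ocln, Cgn and Mpp5 values was not tested.

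Genes with the most similar pattern over the 8 libraries were sought for Cldn4, Cldn8 and Cldn1 among 11176 protein-coding genes with a mean of at least 5 CPM, by the root mean square difference of centred log2 CPM. For Cldn4 they were H2-DMb1, Spink8 and Fetub, at differences of 0.28, 0.30 and 0.32, where Cldn4 itself varied by 0.80 about its mean. H2-DMb1 was at 5.59, 4.73, 2.52 and 4.69 CPM in WT 2, 3, 4 and 5 and at 5.09, 5.51, 7.78 and 11.1 CPM in KO 1, 3, 4 and 5, and Fetub at 6.08 to 10.1 CPM and 9.79 to 21.6 CPM. The groups overlapped in both genes. Spink8, a gene for a serine protease inhibitor of the Kazal type, was at 4.76, 4.82, 2.80 and 5.14 CPM in WT 2, 3, 4 and 5 and at 6.89, 7.98, 8.75 and 10.6 CPM in KO 1, 3, 4 and 5. Its groups did not overlap, with KO higher, as in 5.5% of all genes tested (log2 fold change 0.97, SE 0.21, adjusted p = 0.10 by edgeR). These genes were picked for a pattern like that of Cldn4 in the same libraries. A higher level in KO was thus favoured by the choice and is no separate result. For Cldn1 the most similar genes were Lyn, a tyrosine kinase gene, Ip6k2 and Rgs2, at 0.13, 0.15 and 0.16, where Cldn1 varied by 0.43. All of these were lowest in WT 2 and, Rgs2 excepted, highest in WT 4. For the sparse Cldn8 they were Lmo1, Baiap2 and Lfng, at 0.49, 0.52 and 0.52 where Cldn8 varied by 0.76, so no gene followed it closely.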

How the data were processed

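RNA from 8 first molar libraries, 4 WT and 4 KO, was enriched by polyA capture, per the labels' protocols. The authors deposited 1 table of whole-number counts, the reads per Ensembl gene in each library, not normalised, with gene lengths that are also the authors'. The submitters' processing notes name CASAVA and mm39, but the deposited positions match GRCm38: GENCODE M21 held 54495 of the 54532 gene IDs, with an identical start for 98.8%. For the aligner, the counter and the strand setting no entry was found (not given in the sources used here), so genes that overlap may share reads.

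Genes were kept by filterByExpr (minimum count 10, minimum total 15), scaled by TMM and compared in R 4.3.3 by the robust, two-sided quasi-likelihood test of edgeR 4.0.16, without covariates. Adjusted p-values are Benjamini-Hochberg values over the 16205 genes. SE is the absolute log2 fold change over the root of its F statistic. CPM per kb divides CPM by the deposited gene length. The biological coefficient of variation was 17.8%. The scripts were tested on simulated data. The alternatives were other scalings, DESeq2 1.42.0, limma voom (limma 3.58.1), other filters, a correction for GC content and length, the replicate number as a block, and fits that left out 1 library or both KO 1 and KO 5. The rule for named genes took all members, the tight junction genes with the smallest p (4 per list) and more fixed by name, the 2 most abundant genes of each marker list and those past the threshold, Wdr72, and the 3 genes most alike in pattern to each of 3 members. Not all genes it names are printed, 1 gene of the tight junction list is not reported here, and Jam3, Lsr, Pard6b, Marveld3, Xist and Sprr2a1, with the genes named only for a DESeq2 or limma voom call or for not overlapping (Arhgef2), were named after their values were seen. The members and lists were chosen with earlier results of these data known.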

Additional observations from a re-analysis of the deposited data

Results flagged for a closer look

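In 3 of 44 gene groups examined a single library lay far from the other 3 of its group, by Dixon's gap test at the 95% level. Chance alone gives such a gap in about 1 in 20 groups, so a number near 3 can come from chance. Cldn4 was at 1.95 CPM in WT 4, against 3.72 to 3.93 CPM in the other WT libraries. Cldn8 was at 0.0921 CPM in KO 4, against 0.597 to 0.624 CPM in the other KO libraries, a level that rests on 2 reads. Cldn10 was at 14.3 CPM in WT 5, against 7.20 to 8.40 CPM in the other WT libraries. Without WT 4 the log2 fold change of Cldn4 was 1.14 (adjusted p = 0.23 by edgeR).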

How the results depend on the processing

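Of 18 single genes followed through up to 18 alternatives, 13 kept their sign in each one that gave a value. The signs that turned were those of small differences. For Cldn12 the log2 fold change was 0.028 with the replicate number as a block, 0.011 with the GC and length correction, 0.10 with both, and 0.078 without KO 1 and KO 5; with single libraries left out it ran from -0.16 to 0.0046. With single libraries left out Cldn1 ran from -0.021 to 0.55, Cldn19 from -0.034 to 0.38, Marveld2 from -0.13 to 0.075 and F11r from -0.090 to 0.081. Marveld2 was at 0.0025 with limma voom and 0.039 without KO 1 and KO 5. The cause was not tested.

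The number of claudins called at an adjusted p of 0.05 was 0 by edgeR in each of its alternatives and 1, Cldn4, with DESeq2 and with limma voom. Over all genes 5 were called, 464 with DESeq2, 1073 with limma voom, 241 with no low-count filter, 2 with library totals as the scaling, 14 with the GC and length correction, 11 without KO 1 and KO 5, and 0 to 55 with single libraries left out. With the replicate number as a block 1 gene was called, Wdr72, and Wdr72 was again the 1 gene called with the correction added. The block takes WT 2 and KO 1 out of the comparison, because no library of the other group has their number. KO 1 was the KO library with the most Wdr72. The log2 fold change of Wdr72 was -3.42 with the block, -3.21 without KO 1 and -2.43 with all libraries and no block. The numbers 3, 4 and 5 showed no sign of pairing the libraries. Deviations of same-numbered libraries correlated at -0.143, -0.092 and -0.121, inside the range for different numbers, -0.235 to 0.274. The labels state no pairing, and so few values cannot exclude it. Cldn8 and Cldn19 had no value under the stricter filter. Other scalings moved the median of all genes to between -0.027 and 0.021. Depth limits Cldn7, Cldn8, Cldn19 and Cldn23, which had 40, 88, 118 and 16 reads over all libraries.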
